A study of Mus musculus with 7 samples.

Results

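Long noncoding RNAs that act in or near the cell nucleus were followed in quadriceps femoris muscle of mice with a mutant Twinkle transgene and of wild-type mice. Every probe set (a group of short array probes designed for 1 transcript) whose annotation held 1 gene symbol among Malat1, Neat1, Meg3, Rian and H19 was taken. That gave 4 of the 18193 genes named on the array and 24 of its 45101 probe sets: 7 for Malat1, 2 for Neat1, 11 for Meg3 and 4 for Rian. H19 gave 0, because the 1 probe set annotated to it also carried the symbol of the microRNA gene Mir675 inside it. The genes were picked on values of these same arrays, including the comparison of mutant with wild-type muscle, so their differences are given as descriptions and without a test.

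Long noncoding RNAs are transcripts that are not translated into protein. Malat1 is a long, unspliced RNA that gathers in nuclear speckles, the bodies where splicing factors are stored, and Neat1 is the scaffold on which the neighbouring bodies called paraspeckles are built. Meg3 and Rian are transcribed from the maternal copy of the imprinted Dlk1-Dio3 region and carry microRNAs and small nucleolar RNAs in their introns, and H19 is the maternal transcript of the imprinted Igf2 region. All of these are known from muscle: Malat1 has been studied in differentiating myoblasts, and Meg3 and H19 in muscle growth and regeneration.

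The mutant group held 3 mice that the titles name as overexpressors of mutant Twinkle, the helicase of mitochondrial DNA. They were 24, 24 and 21 months old. The wild-type group held 4 mice aged 26, 24, 21 and 23 months. The series presents the mutant line as a model of progressive external ophthalmoplegia, a mitochondrial muscle disease. The promoter of the transgene, the sex of the mice and the strain are not given in the sources used here. Each mouse was measured on 1 Affymetrix array, called mutant 1 to 3 and wild-type 1 to 4 below as the labels number them, and the labels name no treatment of either group. The free-text descriptions name cerebellum where titles, source and tissue entries name muscle. The 10 measured muscle fibre genes all lay in the highest level class of the array, and 1 of 11 cerebellum genes did.

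The deposited values are log2 values relative to the median of each probe set over the 7 arrays. They hold differences between arrays and no level. A rough level class of the median array (8 to 16, 4 to 8 or 2 to 4 on the log2 scale) was read from the spacing of the stored numbers. Values of 0 mean that an array sat at the median, and 25444 of 45037 probe sets (56.5%) had more than 1 array at exactly 0. Among the 24 probe sets described here 12 did. In limma over 45037 probe sets none passed an adjusted p of 0.05 (0.00% in either direction and in each direction, also over 18193 genes), with 1 as the smallest adjusted value. Without adjustment 890 (1.98%) had a p under 0.05. The arrays were not alike: probe sets that monitor 18S ribosomal RNA had a mean 3.19 above the median in mutant 1 against -0.77 to 0.56 elsewhere. In wild-type 3 the 5′ probe set of Gapdh, relative to its own median, was 0.55 lower than the 3′ probe set relative to its own, and fibroblast genes averaged 1.02 above the median, against -0.31 to 0.38 on the other arrays. Fgf21, the hormone in the title of the series, was 1.48 ± 0.29 higher in mutant muscle (difference of log2 values ± limma's standard error, as for every difference below). Twnk, the gene of Twinkle, differed by 0.04 ± 0.18 in its 1 probe set, with overlapping groups. Whether the probes of that probe set match the transgene was not tested.

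Promoter sequences are shown for Malat1 and Meg3, which lay on opposite sides of their medians on mutant 2. They come from RefSeq (GRCm38.p6) and run from 250 bases before to 50 bases after the annotated start. The Malat1 window is chr19:5802623-5802922 on the minus strand, and the Meg3 window, 1 of 2 listed for that gene, is chr12:109540746-109541045 on the plus strand. Capitals mark the cAMP response element TGACGTCA in Meg3 and its half-site TGACG, on either strand, in Malat1.
Malat1 promoter: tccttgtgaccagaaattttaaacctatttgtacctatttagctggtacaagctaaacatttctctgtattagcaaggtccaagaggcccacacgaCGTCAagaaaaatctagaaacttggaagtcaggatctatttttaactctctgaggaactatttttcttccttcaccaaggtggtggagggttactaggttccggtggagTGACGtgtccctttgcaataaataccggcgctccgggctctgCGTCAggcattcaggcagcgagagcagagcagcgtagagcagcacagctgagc
Meg3 promoter: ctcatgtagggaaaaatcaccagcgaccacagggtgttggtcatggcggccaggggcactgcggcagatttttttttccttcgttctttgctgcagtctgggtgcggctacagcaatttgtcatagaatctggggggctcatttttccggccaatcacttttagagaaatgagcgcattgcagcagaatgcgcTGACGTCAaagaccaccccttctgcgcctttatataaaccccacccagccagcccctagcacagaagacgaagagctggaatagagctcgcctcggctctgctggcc
The full element was found in 588 of 32851 promoter windows of the same length (1.79%), the Meg3 window among them. The half-site, which the full element contains, was in 6837 windows (20.8%), and the Malat1 window held 3 matches to it and no full element. The Rian window and the other Meg3 window held neither. These are matches of letters and say nothing of which factor binds there.

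The double name of the H19 probe set comes from a microRNA that is cut from H19 itself. Both mature arms are printed with the seed, bases 2 to 8, in capitals, and are shown because this microRNA is what kept H19 without a probe set of its own here. They lie on the minus strand of chromosome 7 (GRCm38.p6), the 5p arm at chr7:142577112-142577133 and the 3p arm at chr7:142577078-142577099.
mmu-miR-675-5p: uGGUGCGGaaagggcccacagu
mmu-miR-675-3p: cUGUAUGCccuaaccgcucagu
In the same RefSeq genes, 1 microRNA hairpin was counted inside Meg3 (Mir770), 3 inside Rian (Mir341, Mir370 and Mir1188), and 0 inside Malat1 or Neat1. Outside that count, mature miR-1906 is also listed with Meg3 as its host. It lies at chr12:109544588-109544609, between the 2 promoter windows of Meg3. Malat1 and Neat1 were neighbours on chromosome 19. Mascrna, the small RNA cut from the Malat1 3′ end, came between them only in the listed gene order. Malat1 is on the minus strand and Neat1 is listed after it, so that end faces away from Neat1. Meg3 and Rian both lay on chromosome 12, Meg3 between Dlk1 and Rtl1.

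Malat1 was higher in mutant muscle in all 7 of its probe sets. The differences ran from 0.10 to 1.31 with a median of 0.31, all 7 probe sets lay in the middle level class, and in 4 of them every mutant array was above every wild-type array. Over all 45037 probe sets 477 (1.06%) showed that separation upward and 459 (1.02%) downward, and 21339 were higher against 23692 lower with a median difference of -0.01. Because the genes were picked on this contrast, the background is printed for reference only. Whether more nuclei or more RNA per nucleus gives such a value cannot be told apart in whole muscle.

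The widest difference was in 1418188_a_at. It read 0.24, 0.64 and 1.34 on mutant 1 to 3, and 0.00, -0.93, -1.16 and -0.18 on wild-type 1 to 4. The groups did not overlap, but the gap between mutant 1 and wild-type 1 was small beside the 2.51 between the highest and lowest array. The difference was 1.31 ± 0.36, a 2.48-fold higher value. Of all probe sets on the array, 0.508% had a range at least this wide.

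1438403_s_at came next. It read 0.61, 0.19 and 1.22 in mutant muscle and -0.04, -0.52, -0.82 and 0.00 in wild-type muscle, a difference of 1.02 ± 0.29 (2.03-fold). Its order of arrays was close to that of 1418188_a_at: mutant 3 was highest, wild-type 3 lowest and wild-type 2 next to it. These 2 probe sets come from different source sequences, and their root mean square distance over the 7 arrays was 0.31.

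In the third, 1418189_s_at, 1 array carried the difference. It read 0.21, 0.04 and 1.58 in mutant muscle against -0.15, 0.00, -0.12 and -0.07 in wild-type muscle. Mutant 3 stood 1.37 above the next array, and the other 6 arrays lay within a range of 0.36. The groups did not overlap, with a difference of 0.70 ± 0.35, and without mutant 3 it was 0.21. This probe set was designed from the same source record as 1418188_a_at, yet the pair differed by 1.04 in wild-type 3 and by a root mean square of 0.59.

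The remaining 4 probe sets of Malat1 moved less with genotype. 1452378_at read 0.02, 0.27 and 0.03 in mutant muscle and 0.00, -0.25, -0.34 and 0.00 in wild-type muscle (0.25 ± 0.12). The groups were apart by 0.02 between mutant 1 and wild-type 1 and 4. 1429060_at read 0.01, 0.28 and 0.00 against 0.35, -0.47, -0.12 and -0.62 (0.31 ± 0.23), and the groups overlapped because wild-type 1 was the highest array. 1427285_s_at stayed within a range of 0.28, which 85.4% of all probe sets reached or passed, with 0.07, 0.11 and -0.12 against 0.00, -0.16, -0.14 and 0.00 (0.10 ± 0.09).

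1436202_at had a wide range without following genotype. It read -0.26, 0.85 and 0.00 in mutant muscle and 1.15, -0.58, -0.53 and 0.00 in wild-type muscle. Wild-type 1 was the highest and mutant 2 the next. The difference was 0.19 ± 0.46 although the range was 1.73, about that of 1418189_s_at, and without mutant 2 the difference was -0.14.

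**Figure D1:**
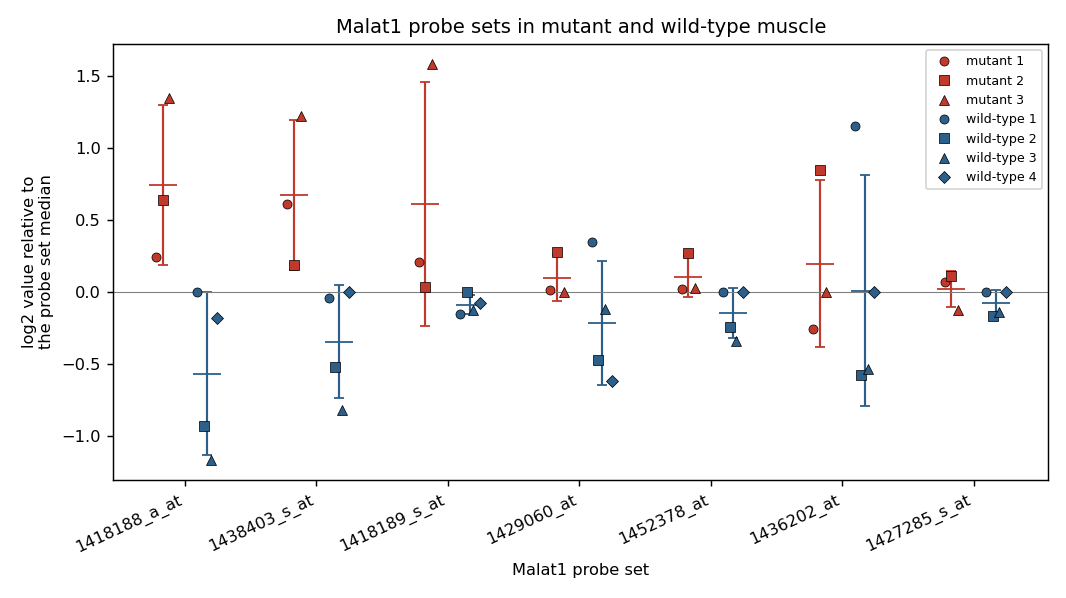
Log2 value relative to the probe set median (vertical axis) of the 7 Malat1 probe sets (horizontal axis) on each array, with 1 symbol per array, mutant in red and wild-type in blue; wide bars are group means and thin bars 1 SD. Mutant 3 lies above 1 in the 3 leftmost probe sets and between -0.12 and 0.03 in the other 4.

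The probe sets of Malat1 differed among themselves by array. In mutant 3 the 3 probe sets 1418188_a_at, 1438403_s_at and 1418189_s_at were all above 1, and the other 4 ran from -0.12 to 0.03. The mean of the 3 read 0.35, 0.29 and 1.38 against -0.06, -0.48, -0.70 and -0.08, a difference of 1.01, or 0.65 without mutant 3. The mean of the other 4 read -0.04, 0.38 and -0.02 against 0.37, -0.36, -0.28 and -0.15, a difference of 0.21, or 0.28 without mutant 3. These subsets were drawn after the values of mutant 3 had been seen. What the 7 shared was the direction on 3 arrays: all 7 were above 0 in mutant 2, all 7 were below 0 in wild-type 3, and 6 were below 0 in wild-type 2 with the last at 0.

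The name ending of a probe set tells how its probes match transcripts. A plain ending means probes written for 1 transcript, "a" means probes shared by transcript forms of 1 gene, and "s" means probes that may match several genes. The 3 Malat1 probe sets with a plain ending differed by 0.25 between groups on average, and the 4 with an "a" or "s" ending by 0.78. Probe sequences were not used here, so the place of each probe along the Malat1 RNA was not compared.

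Pairs of Malat1 probe sets from different source records were 0.29 to 0.89 apart (root mean square over the 7 arrays, 19 pairs, median 0.62). Meg3 pairs were closer, at 0.09 to 0.47 (50 pairs, median 0.28), the Neat1 pair lay 0.22 apart and Rian pairs 0.07 to 0.14 (6 pairs). Pairs of different genes among these RNAs had a median of 0.36 (193 pairs), below the Malat1 median. Most of these 193 pairs held a Malat1 probe set, so their median is not independent of Malat1. Pairs from 1 source record were 0.12 and 0.59 apart for Malat1 and 0.17 to 0.41 for Meg3 (5 pairs). A distance scales with how far probe sets vary at all, and the median range was 1.73 in Malat1, 0.64 in Meg3 and 0.27 in Rian, against 0.53 over all probe sets.

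**Figure D2:**
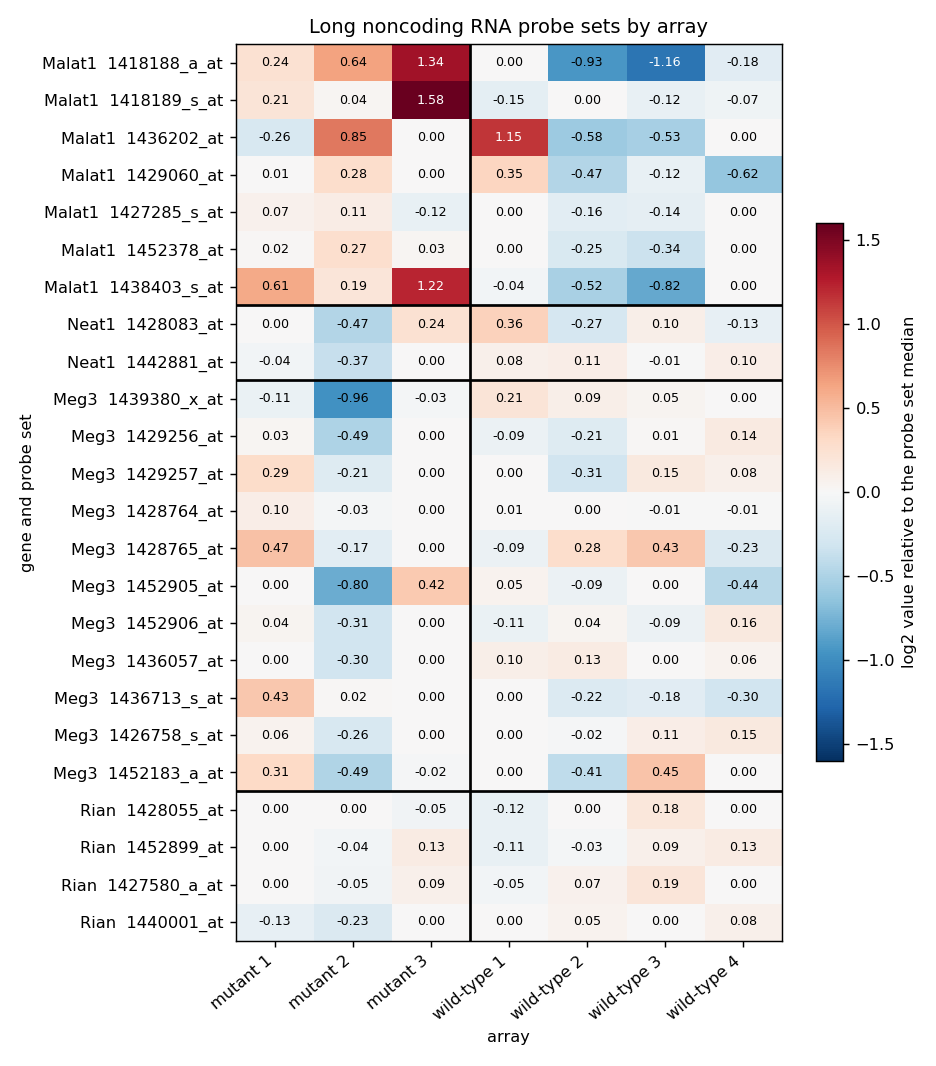
Log2 value relative to the probe set median for the 24 probe sets (rows, grouped by gene) on the 7 arrays (columns, mutant left of the vertical line), red above and blue below the median. Malat1 is above 0 in every row of mutant 2, where 10 of 11 Meg3 and both Neat1 probe sets are below 0.

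Averaged over its 7 probe sets, Malat1 read 0.13, 0.34 and 0.58 in mutant muscle and 0.19, -0.41, -0.46 and -0.12 in wild-type muscle. The group means were 0.35 ± 0.23 (SD, n = 3) and -0.20 ± 0.30 (SD, n = 4), a difference of 0.55 ± 0.18 or 1.47-fold. The groups overlapped at 1 place, where wild-type 1 was above mutant 1. Wild-type 2 and 3 were the lowest arrays, and leaving out any 1 array gave 0.44 to 0.68.

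The arrays also differed in other ways. They fell into 2 sets by clustering all probe sets, with mutant 2 and wild-type 1 and 4 in the smaller set. Malat1 differed by 0.31 within it (1 mutant and 2 wild-type arrays) and by 0.79 within the larger set (2 and 2). Wild-type 3, lowest for Malat1, also had the lowest difference between the centred 5′ and 3′ values of Gapdh (-0.55), the lowest mean of 10 muscle fibre genes (-0.43, others -0.04 to 0.12), and the highest means of 10 fibroblast genes (1.02), 9 leukocyte genes (0.70) and 4 adipocyte genes (1.31). Wild-type 2, next lowest, had an adipocyte mean of 0.71, against -1.10 in wild-type 1. The mean of 7 slow fibre genes had another order: -3.84 and -2.38 in wild-type 1 and 2, 0.73 and 0.58 in wild-type 3 and 4, and -0.11 to 0.25 in mutant muscle. All 7 slow fibre genes (mean difference 1.28) and all 8 endothelial genes (0.20) were higher in mutant muscle, and none passed the adjusted threshold. The endothelial mean read 0.21, 0.00 and 0.08 in mutant muscle and -0.25, 0.09, 0.10 and -0.35 in wild-type muscle, so wild-type 2 and 3 were above mutant 2 and 3. Without wild-type 3 the Malat1 difference was 0.47, and without it and mutant 1 together it was 0.58. For actin, the other control with 5′ and 3′ probe sets, the centred 5′ minus 3′ value did not mark out wild-type 3. It read -0.14, -0.01 and -0.10 in mutant muscle and 0.02, 0.12, 0.12 and 0.08 in wild-type muscle, without overlap of the groups. The part of these 5′ to 3′ differences, cell makeup and fibre type in the Malat1 values was not tested.

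Neat1, which lies beside Malat1 in the genome, had another order of arrays and a difference near 0. The brighter probe set, 1428083_at, lay in the highest level class and read 0.00, -0.47 and 0.24 in mutant muscle and 0.36, -0.27, 0.10 and -0.13 in wild-type muscle. The groups overlapped, wild-type 1 was highest and mutant 2 lowest, and the difference was -0.09 ± 0.21. 1442881_at read -0.04, -0.37 and 0.00 against 0.08, 0.11, -0.01 and 0.10 (-0.21 ± 0.11). Mutant 2 was again the lowest, and the groups overlapped because mutant 3 at 0.00 was above wild-type 3. Without mutant 2 the difference of 1428083_at was 0.10, and within the smaller and larger array sets it was -0.59 and 0.20.

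Meg3 was low on 1 array in most of its probe sets. On mutant 2, 10 of its 11 probe sets were below 0, with a median of -0.30, a lowest value of -0.96 in 1439380_x_at and 0.02 in the other, 1436713_s_at. On mutant 3, 8 of the 11 were at exactly 0. That array had the largest share of all probe sets at exactly 0 (35.5%). Averaged over its 8 probe sets in the middle level class, Meg3 read 0.09, -0.42 and 0.05 in mutant muscle and 0.03, -0.07, 0.08 and 0.00 in wild-type muscle, with overlapping groups and a difference of -0.11 ± 0.14. Apart from mutant 2 the arrays lay between -0.07 and 0.09, and without mutant 2 the difference was 0.06.

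By probe set, the Meg3 differences ran from -0.45 to 0.32 with a median of -0.08, 4 higher and 7 lower in mutant muscle. At the low end 1439380_x_at read -0.11, -0.96 and -0.03 against 0.21, 0.09, 0.05 and 0.00. Every mutant array was below every wild-type array (-0.45 ± 0.22), by 0.03 at the nearest pair, and without mutant 2 the difference was -0.15. Its "x" ending means that some of its probes can match unrelated transcripts. At the high end 1436713_s_at, in the lowest level class, read 0.43, 0.02 and 0.00 against 0.00, -0.22, -0.18 and -0.30 (0.32 ± 0.13). It thus went the other way from 1439380_x_at, with overlap only at a shared 0.00 of mutant 3 and wild-type 1.

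Rian differed by 0.16 or less in every probe set. The brightest, 1440001_at, read -0.13, -0.23 and 0.00 in mutant muscle and 0.00, 0.05, 0.00 and 0.08 in wild-type muscle, a difference of -0.16 ± 0.09 with groups that met at 0.00. Mutant 2 was the lowest array, as for Meg3 and Neat1. The other 3 probe sets, all in the lowest level class, differed by -0.04 to 0.01 and had ranges of 0.24 to 0.30. The mean of all 4 probe sets differed by -0.05.

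**Figure D3:**
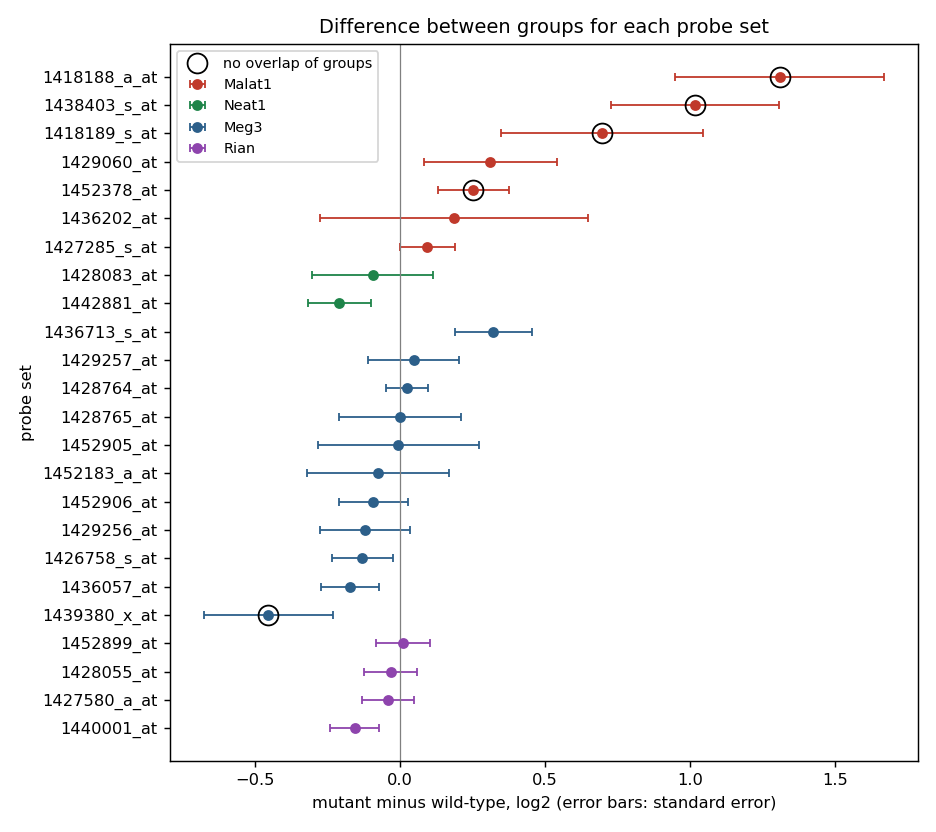
Mutant minus wild-type difference of log2 values (horizontal axis) for each of the 24 probe sets (vertical axis), coloured by gene, with limma's standard error as bars and a ring where the groups do not overlap. The 7 Malat1 probe sets lie right of 0 between 0.10 and 1.31, and those of Neat1, Meg3 and Rian lie between -0.45 and 0.32.

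On mutant 2 Malat1 and the other 3 RNAs lay on opposite sides of 0. Malat1 was 0.34 above its median there, while Neat1 was 0.47 below, Meg3 0.42 below and Rian 0.23 below. On wild-type 3 it was the other way, with Malat1 at -0.46, Neat1 at 0.10, Meg3 at 0.08 and Rian at 0.00. Other transcripts of the Dlk1-Dio3 region were not alike on mutant 2: Dio3os, a noncoding RNA at the far end, read -0.45, the microRNA host Mirg -0.08, and Dlk1, the paternally expressed coding gene, -0.01. Mutant 2 also had the widest spread of all probe sets (SD 0.33, others 0.16 to 0.33) and the fewest values at 0 (18.7%).

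Malat1 was then set against 57 other noncoding RNAs measured out of 80 listed. Its value minus their median was 0.13, 0.34 and 0.58 in mutant muscle and 0.19, -0.41, -0.49 and -0.12 in wild-type muscle. The group means were 0.35 ± 0.23 (SD, n = 3) and -0.21 ± 0.31 (SD, n = 4), which differed by 0.56. The median of the others was 0 on 6 arrays and 0.03 on wild-type 3. Centring holds such a median near 0, so these values are close to those of Malat1 itself.

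By rank, Malat1 was at an end of this collection on 2 arrays. On mutant 3 it was above all 57, the next being Gas5, the host of small nucleolar RNAs, at 0.46. The top place there rests on 3 of the 7 Malat1 probe sets, with a mean of 1.38, against -0.02 for the other 4. On wild-type 2 Malat1 was below all 57, the next being Xist, the RNA that coats the inactive X chromosome, at -0.39. On wild-type 3 it was below 54, on mutant 2 above 53, on wild-type 1 above 51, on wild-type 4 below 46 and on mutant 1 above 41. The difference between groups ran from -0.28 (Snhg6) to 0.25 (Snhg12) in the 57, with 29 higher, 28 lower and a median of 0.00, and 0.55 for Malat1 was above them. That rank rests on the mean of all 7 Malat1 probe sets, since its 3 plain-ending ones gave 0.25, level with Snhg12. Of the 57 gene values, 1 had groups that did not overlap, Fendrr, lower in mutant muscle by 0.17 with -0.14, -0.17 and -0.07 against 0.15, 0.00, 0.00 and 0.02. Over all 18193 genes 157 (0.863%) lay above and 214 (1.18%) below without overlap, so 1 of 57 is near the background.

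**Figure D4:**
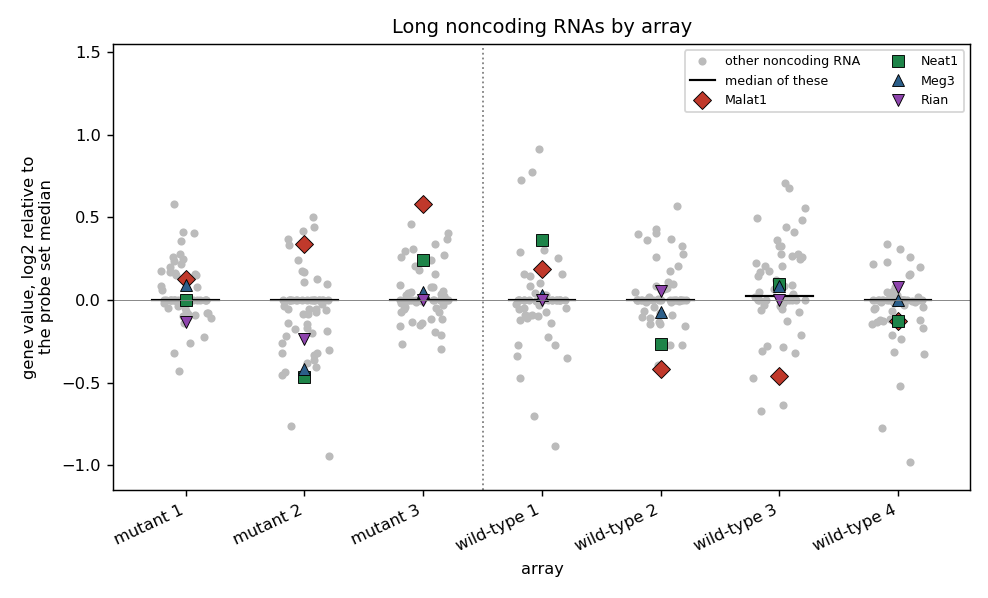
Gene values (log2 relative to the probe set median, vertical axis) of 57 other noncoding RNAs (grey points, black bar at their median) and of Malat1, Neat1, Meg3 and Rian (coloured symbols) on each array (horizontal axis, mutant left of the dotted line). Malat1 is above all grey points on mutant 3 at 0.58 and below them on wild-type 2 at -0.41. The mutant 3 value rests on 3 of its 7 probe sets.

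Single probe sets of some other long nuclear RNAs went further than their gene values. 1427262_at of Xist read 0.00, 0.54 and 0.47 in mutant muscle and -0.23, -1.02, -1.69 and 0.18 in wild-type muscle (1.03 ± 0.43), with wild-type 2 and 3 the lowest as for Malat1. The brightest Xist probe set, 1436936_s_at, differed by -0.10 ± 0.25, so probe sets of Xist also disagreed. 1451634_at of Airn, an imprinted antisense RNA that silences Igf2r, read 0.32, 0.36 and 0.35 against -0.16, -0.35, 0.00 and 0.00 (0.47 ± 0.11) with no overlap, whereas the Airn gene value, from its brightest probe sets, differed by -0.18. Kcnq1ot1, another imprinted antisense RNA, read 0.00, 0.13 and 0.12 in 1457781_at against 0.02, -0.35, -0.42 and -0.33 (0.35 ± 0.12), with wild-type 1 between the mutant arrays. Miat, a nuclear RNA first linked to myocardial infarction, differed by -0.24 ± 0.10 in 1455325_at and by -0.24 as a gene value. By distance over the 7 arrays, the noncoding probe sets nearest to the Malat1 gene value were these of Kcnq1ot1 (0.22) and Airn (0.25), then Tsix (0.26) and Norad (0.28).

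Among probe sets of any gene, the 8 nearest to the Malat1 gene value lay 0.13 to 0.16 away, against a median of 0.41 over 34938 probe sets and 0.24 to 0.50 for the Malat1 probe sets themselves. They were those of Uvssa, 9230114K14Rik, Bptf, Prdm2, Sdc4, Rbm25, Brwd1 and Sypl, in order of distance. Bptf, a subunit of a chromatin remodeller, read 0.01, 0.48 and 0.46 in mutant muscle against 0.00, -0.24, -0.61 and -0.06, and Sdc4, a syndecan of the cell surface, read 0.26, 0.36 and 0.35 against 0.00, -0.20, -0.38 and -0.20. Groups did not overlap in either, with differences of 0.54 ± 0.18 and 0.52 ± 0.10. Rbm25, a splicing regulator, read 0.00, 0.35 and 0.64 against -0.04, -0.60, -0.66 and 0.04, with wild-type 4 above mutant 1. In all of these wild-type 2 and 3 were the lowest arrays, as they were for Malat1, which the choice by distance favours.

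Protein partners of the nuclear bodies were measured as well, and in none of the lists did a gene pass the adjusted threshold of limma. Without adjustment, 3 of 40 speckle and 2 of 32 paraspeckle gene values had a p under 0.05 in limma, against 260 of all 18193. The genes named below were picked by single probe sets and need not be the ones counted. Of 40 measured speckle proteins and splicing factors 29 were higher and 11 lower in mutant muscle, with a median difference of 0.09 against -0.01 over all 18193 genes (8447 higher, 9746 lower). The mutant arrays did not share this direction. The median of the 40 was -0.15, 0.22 and 0.04 in mutant muscle and 0.08, -0.01, -0.12 and -0.01 in wild-type muscle, with mutant 1 the lowest array. Srpk2, a kinase of splicing factors, differed by 0.74 ± 0.23 in 1 of 6 probe sets, which ran down to -0.11, and its gene value by 0.11. Luc7l3 differed by 0.58 ± 0.18 in 1 of 3 and its gene value by 0.05. For Luc7l2 the probe set gave 0.32 ± 0.08 and the gene value 0.15, while its 8 probe sets ran from -0.08 to 1.31. For Pabpn1 the probe set gave 0.29 ± 0.09 and the gene value 0.43. Each of these probe sets was taken for the smallest p of its gene. Of 32 measured paraspeckle proteins, which bind Neat1, 18 were higher and 14 lower with a median of 0.02.

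Probe sets of the paraspeckle proteins disagreed within genes as those of Malat1 did. 1436898_at of Sfpq, a core paraspeckle protein, read 1.06, 0.84 and 1.75 in mutant muscle and -0.56, 0.00, -1.25 and 0.00 in wild-type muscle. The groups lay well apart (1.67 ± 0.35), but this probe set is in the lowest level class, other Sfpq probe sets reached down to -0.24 and the gene value differed by 0.08. Smarca4, the ATPase of a chromatin remodeller, differed by 1.02 ± 0.20 in 1426805_at, in the highest class, and by 0.04 in its other probe set.

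Long transcripts of the muscle fibre were listed beside Malat1 for their length. Of 12 measured, 9 were higher and 3 lower, with a median difference of 0.07. 1444638_at of Ttn, which encodes titin, read 0.75, 0.49 and 1.07 in mutant muscle against 0.00, -0.17, -1.40 and -0.02 (1.17 ± 0.36), and Ryr1, the calcium release channel, differed by 0.93 ± 0.44 in 1457347_at. The 6 Ttn probe sets ran from -0.19 to 1.36 with a gene value of 0.61, and the gene value of Ryr1 differed by 0.49. In both named probe sets wild-type 3 was the lowest array and mutant 3 the highest, and the same arrays were at the ends in 1418188_a_at of Malat1. The mean of the 12 was -0.36 in wild-type 3, against -0.11 to 0.19 on the other arrays.

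The genes around these RNAs did not show a common change. Of 10 measured coding genes next to Malat1 and Neat1, 4 were higher and 6 lower (median -0.07), and Frmd8, the coding neighbour of Neat1, differed by -0.05 ± 0.12. Of 19 measured imprinted coding genes, 10 were higher and 9 lower (median 0.01). Igf2r read 0.54, 0.20 and 0.58 in 1424112_at against -0.36, 0.00, -0.51 and -0.36, a difference of 0.75 ± 0.15 with no overlap, and its gene value differed by 0.44. Ndn, a maternally imprinted growth regulator, differed by -0.33 ± 0.14 in 1438978_x_at and by -0.35 as a gene value. Igf2, the coding partner of H19, ran from -0.81 in mutant 2 to 1.30 in mutant 1 and differed by 0.48 ± 0.47.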

How the data were processed

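Total RNA of quadriceps muscle was extracted with Trizol, and biotinylated cRNA from 5 ug was hybridised to 1 single-colour Affymetrix array per mouse, per the labels' protocols. The submitters' processing notes name GCOS 4.0. The deposited log2 values are centred on each probe set's median, read from the values, where that median was 0 in all 45037 probe sets tested. The summary method and the scaling between arrays are not given in the sources used here, nor is the log base, which was taken as 2 from the number spacing. Centring removes levels, and the spacing left a level class unresolved for 253 of 45101 probe sets. No read depth exists for arrays, and precision is limited by their number.

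Groups came from the titles. Per the labels, replicates within a group are biological. The fit left out 64 control probe sets. Of the rest, 34945 had 1 symbol, 932 several and 9160 none, and 34741 were updated by identifier through a RefSeq gene table (GRCm38.p6). Differences and standard errors come from lmFit and eBayes of limma 3.58.1 under R 4.3.3 (two-sided, Benjamini-Hochberg, threshold 0.05), with no covariate or filter. A gene value averages those probe sets of the gene that share its highest level class. The fit was tested on simulated normal values, which hold no ties. It recovered 16% of log2 shifts of 0.5, 46% of shifts of 1 and 92% of shifts of 2. Members and gene lists were chosen with earlier results of these data known. In each list the text takes up to 4 genes with the smallest unadjusted p, and as nearest to Malat1 the 8 probe sets with the smallest root mean square distance. Fgf21 and Twnk were named as reference points. The locus genes Dio3os, Mirg, Dlk1, Igf2 and Frmd8 and the genes at the ends of a range were named after their values were seen. Alternatives were quantile normalization, other variance priors, age, replicate number or array set as a term, other gene values, no dim probe sets and leaving out arrays.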

Additional observations from a re-analysis of the deposited data

Results flagged for a closer look

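In 63 groups of 4 wild-type arrays, 4 held an array far from the other 3 by Dixon's criterion, where chance flags about 1 in 20 groups of untied values. Many probe sets have more than 1 array tied at exactly 0, so that share does not hold here. All 4 were wild-type 3, and none was a probe set of Malat1, Neat1, Meg3 or Rian. 1444638_at of Ttn read -1.40 there against -0.17 to 0.00 on the other wild-type arrays. 1432646_a_at of Norad, a noncoding RNA, read -0.80 against -0.02 to 0.00. 1448369_at of Pola2 read -0.27 against -0.02 to 0.00, and 1447540_at of Tigd3 read 0.065 against 0 on the other 3. Wild-type 3 is also the array with the low Malat1 values and the lowest centred 5′ minus 3′ value of Gapdh, though not of actin. What sets it apart was not tested.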

How the results depend on the processing

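No probe set passed the adjusted threshold of limma in any of 16 alternatives, with 260 (genes in place of probe sets) to 2743 at an unadjusted p under 0.05 and a smallest adjusted p of 0.752, without wild-type 1. Leaving out 1 array at a time kept that count at 0 and gave differences of 0.44 to 0.68 for Malat1, -0.25 to 0.10 for Neat1, -0.20 to 0.06 for Meg3, -0.22 to -0.10 for Rian and 0.45 to 0.69 for Malat1 against the other noncoding RNAs. The Malat1 difference was 0.25 over its probe sets with a plain ending and 0.32 as the median of its 7. That of Rian was -0.054 as the mean and -0.0298 as the median of all its probe sets. Neat1 changed sign with quantile normalization (0.02), without mutant 2 (0.10) and without wild-type 1 (0.02), and Meg3 without mutant 2 (0.06). Of 288 values for single probe sets under alternatives, all stayed within 1 SD of the arrays and 35 differed in sign. Of 60 gene values, 57 stayed within 1 SD and 4 differed in sign. The 3 that moved further were the plain-ending value of Malat1 and the mean and median of all Rian probe sets. The replicate numbers did not pair the arrays (correlation of same-numbered deviations -0.48, -0.31 and 0.15). The number was also used as a replicate block, which left out wild-type 4. The differences were then 0.58 for Malat1, -0.14 for Neat1, -0.11 for Meg3 and -0.14 for Rian, with 0 probe sets called. They equal the differences found by leaving out wild-type 4 without a block. With the 2 sets of arrays as a block, chosen after seeing the data, Malat1 differed by 0.60. The causes were not tested. The number of arrays, 3 and 4, limits the precision, and signal over background is unknown without levels.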
